A study of Mus musculus with 17 samples.

Results

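The line that expressed SRF-ICA1L was compared with the line that carried the empty vector pMSCV. Both are C2C12, cultured mouse myoblasts, the precursor cells of skeletal muscle, able to fuse into fibres. All 3 SRF-ICA1L libraries and all 3 pMSCV libraries were used, 6 of the 17 libraries of the series, and all 14639 genes that passed a filter on low counts were tested, of 15062 in the deposited table. SRF-ICA1L is a fusion named for the genes of serum response factor (SRF) and islet cell autoantigen 1-like (ICA1L). The line with wild-type SRF and the line with the fusion SRF-RELA (3 libraries each) served to estimate the spread between libraries and as points of reference. All lines were kept in growth medium with foetal bovine serum. A shared medium does not show that the cultures were in the same state. The labels give neither the age of the cultures nor whether a line is a pool of cells or 1 clone, and they do not say that the replicates are separate cultures, so p-values measure the spread between these libraries, which may be technical.

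SRF is a transcription factor that binds a short AT-rich element, the CArG box. With the ternary complex factors it acts at immediate-early genes after growth factor signals, and with the myocardin-related factors (MRTFs) it acts at genes of the actin cytoskeleton and of smooth, skeletal and cardiac muscle. In myoblasts, the muscle-specific factors MyoD and myogenin bind a different element, the E-box, and switch on the genes of the contractile apparatus when the cells leave the cell cycle and fuse. ICA1L belongs to a family of proteins with a BAR domain, a membrane-binding fold found in proteins of vesicle traffic. Fusions of SRF with other genes have been described in soft tissue tumours with smooth muscle-like or skeletal muscle-like features.

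Of the 14639 genes tested, 196 (1.34%) were higher and 241 (1.65%) were lower in SRF-ICA1L than in pMSCV at an adjusted p under 0.05, which is 2.99% in either direction. In what follows, "edgeR adjusted p" stands for edgeR's quasi-likelihood test on the counts with replicate number as a block and Benjamini-Hochberg adjustment over all genes tested, and a gene that passed is said to have been called. The difference was at least 2-fold for 104 of the genes called higher and for 160 of those called lower. In 436 of the 437 called genes each of the 3 same-numbered pairs of libraries differed in the direction of the fitted fold change, against 37.5% of all genes tested. A test with the block selects genes for such agreement, so the agreement is not separate support for the calls. The 3 libraries of 1 group lay wholly above or below those of the other for 129 of the genes called higher and 159 of those called lower, while 10.2% of all tested genes lay so, 4.95% higher and 5.29% lower. The calls depend on the block, on which groups enter the fit and on single libraries. With the block and all 17 libraries of the series in the fit, none of the 437 was called. In the 12 libraries of the main fit, none of the 437 was called without the block, although 1063 genes then had an unadjusted p under 0.05. With the block, 64 genes were called without pMSCV replicate 1, of which 61 were among the 437, and 57 without SRF-ICA1L replicate 1, of which 55 were. Without SRF-ICA1L replicate 2 the number was 24, all among the 437, and without SRF-ICA1L replicate 3 it was 227, with 202 among them. None was called without any library of number 1 (1609 at an unadjusted p under 0.05), and 258 were called without any of number 3, of which 170 were among the 437.

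The 6 libraries alone, with the block, called 19 genes (0.136% of 13958 tested), 2 higher (0.0143%) and 17 lower (0.122%). Of these 19, 15 were among the 437. They comprised Col12a1 and Slc6a17 higher, and Hmcn1, Syt1, Xirp2, Synpo2l, Lbx1, Myh3, Glrp1, Chrnd, Xirp1, Slc14a1, Slc16a3, Dcaf8l and Chrnb1 lower. The 4 others, Mymk, Tnnt3, Myl1 and Myom2, are all skeletal muscle genes, and all were lower. The depth of the 6 libraries ran from 21698573 to 22278138 counts, and replicate libraries of a group differed far more than counting error allows, with a chi-square of 61.7 to 189 per degree of freedom.

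**Figure D1:**
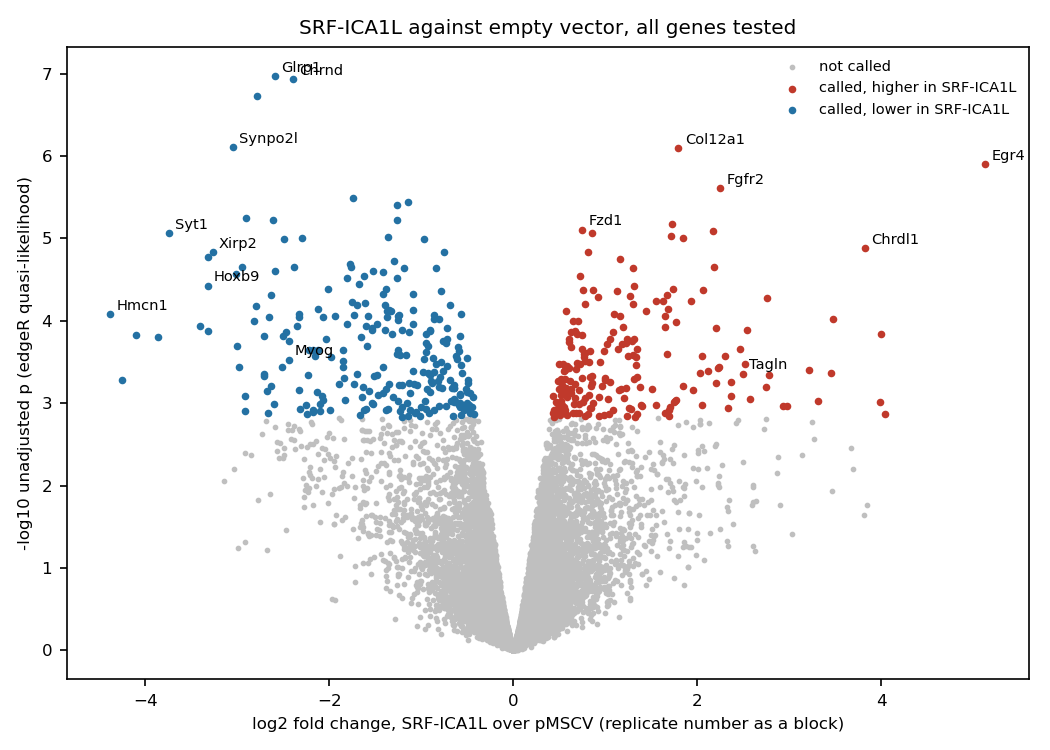
Every gene tested, with the log2 fold change of SRF-ICA1L over pMSCV on the horizontal axis and −log10 of the unadjusted p on the vertical axis, grey where not called, red for the 196 genes called higher and blue for the 241 called lower. Muscle genes such as Chrnd, Synpo2l and Xirp2 lie at the upper left, and Col12a1, Fgfr2 and Egr4 at the upper right.

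The introduced genes were looked at first, as a check of the labels. Srf stood at 65.4, 92.7 and 82.8 CPM (counts scaled to a common library size) in pMSCV replicates 1, 2 and 3, and at 277, 175 and 121 CPM in SRF-ICA1L. The groups did not overlap, with a log2 fold change of 1.14 (SE 0.31), but the gene was not called (edgeR adjusted p 0.0815). In the line with wild-type SRF the same gene stood at 1653, 670 and 1029 CPM, above every SRF-ICA1L library, and SRF-ICA1L was lower than it by a log2 difference of -2.57 (SE 0.32, edgeR adjusted p 0.0218). Ica1l had 8, 6 and 8 counts in pMSCV and 6, 21 and 10 counts in SRF-ICA1L, and was not called (edgeR adjusted p 0.515). How far reads of an introduced construct count towards either mouse gene is not known, so these counts do not check the label of the SRF-ICA1L line. None of the 6 SRF cofactors tested was called. Mrtfb, a myocardin-related coactivator of SRF, came nearest: it stood at 52.0, 59.2 and 54.4 CPM in pMSCV and at 79.4, 93.0 and 58.0 CPM in SRF-ICA1L. The groups overlapped, and all 3 pairs were higher in SRF-ICA1L, by 0.61, 0.65 and 0.09 on the log2 scale (log2 fold change 0.45, SE 0.12, edgeR adjusted p 0.0759). Its relative Mrtfa had a log2 fold change of 0.10 (SE 0.14), the coactivator Fhl2 of 0.02 (SE 0.17), and the ternary complex factors Elk1, Elk3 and Elk4 of -0.10 (SE 0.12), -0.08 (SE 0.11) and 0.20 (SE 0.12).

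Over 6 lists of skeletal muscle genes, from the myogenic regulators to the dystrophin complex, 22 genes were called lower in SRF-ICA1L and 1 higher. The number tested is given with each list. Over all genes tested, 1.65% were called lower and 1.34% higher, and these shares stand beside the called counts of every list below. Of 15 myogenic regulators tested, 4 were called lower and none higher. Myod1, the MyoD gene that commits cells to the muscle lineage (chr7:46376474-46379099 in GRCm38), stood at 60.0, 44.4 and 106 CPM in pMSCV and at 16.0, 14.5 and 64.2 CPM in SRF-ICA1L. Each SRF-ICA1L library lay below the pMSCV library of its own number, while SRF-ICA1L replicate 3 lay above pMSCV replicates 1 and 2. The log2 fold change was -1.41 (SE 0.20, edgeR adjusted p 0.00902). Myog, which encodes myogenin, the factor that starts terminal differentiation, stood at 10.8, 13.4 and 22.3 CPM in pMSCV and at 1.34, 1.51 and 7.35 CPM in SRF-ICA1L. All 3 SRF-ICA1L libraries lay below all pMSCV libraries, and Myog fell by 2.44 on the log2 scale (SE 0.46, edgeR adjusted p 0.0221), which is 5.42-fold lower. Mef2c, a partner of the MyoD family, stood at 28.7, 15.6 and 19.1 CPM in pMSCV and at 4.73, 3.55 and 7.76 CPM in SRF-ICA1L, with no overlap (log2 fold change -2.01, SE 0.30, edgeR adjusted p 0.0110). The remaining called regulator was Hey1, a repressor downstream of Notch, which was 24.2, 106 and 12.3 CPM in pMSCV against 4.15, 36.3 and 6.66 CPM in SRF-ICA1L (log2 fold change -1.65, SE 0.29, edgeR adjusted p 0.0164). Myf5, another factor of the MyoD family, stood at 19.6, 42.6 and 33.5 CPM in pMSCV and at 13.5, 14.7 and 25.6 CPM in SRF-ICA1L, and did not pass (edgeR adjusted p 0.0548). Pax7, a marker of muscle stem cells, had a log2 fold change of 0.18 (SE 0.40), with 1 pair below 0 and the others above it.

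Of 28 sarcomere genes, 6 were called lower and none higher, and 27 of 28 had a fold change below 0. Their median log2 fold change was -1.76, against 0.01 for all genes tested. The median difference was -2.40 within replicate number 1, -1.91 within number 2 and -1.28 within number 3. Srf itself differed by 2.08, 0.92 and 0.54 in the same 3 pairs, and whether the sizes are related was not tested. Xirp2, which encodes an actin-binding protein of muscle attachment sites (chr2:67446002-67526614), stood at 22, 11.6 and 21.2 CPM in pMSCV and at 1.62, 1.24 and 2.78 CPM in SRF-ICA1L. Its groups lay far apart, and the gene was 9.61-fold lower (log2 fold change -3.26, SE 0.43, edgeR adjusted p 0.00771). Its relative Xirp1 was at 38.0, 14.5 and 32.3 CPM in pMSCV and at 6.68, 2.53 and 7.03 CPM in SRF-ICA1L, with nearly equal differences in the 3 pairs of -2.49, -2.48 and -2.19 (edgeR adjusted p 0.00860). Myh3, the embryonic myosin heavy chain, stood at 84.5, 40.5 and 74.2 CPM in pMSCV and at 8.78, 7.54 and 15.2 CPM in SRF-ICA1L. The groups did not overlap, and Myh3 fell by 2.67 on the log2 scale (SE 0.60, edgeR adjusted p 0.0470). The other called members were Mybph, a myosin-binding protein (log2 fold change -2.71, SE 0.54), Tnni1, the slow skeletal troponin I (-2.25, SE 0.50), and Myl4, a myosin light chain of embryonic muscle (-1.48, SE 0.25). Myosin and troponin genes that did not pass had values of a like size: Tnnt3 was at 10.9, 20.2 and 16.8 CPM in pMSCV and at 1.86, 2.70 and 3.38 CPM in SRF-ICA1L (edgeR adjusted p 0.0787). In SRF-RELA, which entered the estimate of spread, Tnnt3 was 1.80, 14.2 and 1.5 CPM. Acta1, the skeletal actin and a textbook SRF target, was 45.3, 30.8 and 106 CPM in pMSCV against 28.3, 55.7 and 44.5 CPM in SRF-ICA1L, so the pairs differed in sign. Outside the list, Synpo2l, an actin-associated protein of the Z-disc, had one of the smallest p-values of all falls. It stood at 94.3, 35.1 and 58.1 CPM in pMSCV and at 9.55, 4.08 and 8.31 CPM in SRF-ICA1L (log2 fold change -3.05, SE 0.29, edgeR adjusted p 0.00234).

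The genes that couple excitation to contraction showed 5 of 19 called lower and none higher, with a median of -0.97. The 5 were Cacna1s, Cacnb1 and Cacng1, 3 subunits of the muscle L-type calcium channel, Stac3, an adaptor of that channel, and Atp2a1, the calcium pump of the sarcoplasmic reticulum. Cacnb1 stood at 21.5, 27.1 and 15.5 CPM in pMSCV and at 5.87, 6.34 and 8.26 CPM in SRF-ICA1L. Every SRF-ICA1L library lay below every pMSCV library (log2 fold change -1.61, SE 0.25, edgeR adjusted p 0.0126). Atp2a1 was at 9.28, 13.4 and 7.84 CPM in pMSCV and at 1.48, 2.48 and 3.38 CPM in SRF-ICA1L, again without overlap (log2 fold change -2.08, SE 0.45, edgeR adjusted p 0.0376). Cacna1s was weakly expressed, with 36, 21 and 53 counts in pMSCV and 2, 9 and 7 counts in SRF-ICA1L (log2 fold change -2.60, SE 0.58, edgeR adjusted p 0.0421). The differences were again smallest in pair 3, where the median of the 19 genes was -0.19 against -1.85 in pair 1.

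Of 14 genes of the acetylcholine receptor and the neuromuscular synapse, 5 were called lower and none higher, with a median of -0.82. Chrnd, the delta subunit of the muscle receptor (chr1:87190607-87200070), shared the smallest adjusted p of all genes with Glrp1. It stood at 146, 73.3 and 60.5 CPM in pMSCV and at 20.1, 13.1 and 16.4 CPM in SRF-ICA1L, so that the highest SRF-ICA1L library was below the lowest pMSCV library. Chrnd fell by 2.40 on the log2 scale (SE 0.19, edgeR adjusted p 0.000848), which is 5.27-fold lower, and by 2.85, 2.47 and 1.88 in the 3 pairs. The beta subunit gene Chrnb1 was at 117, 39.6 and 116 CPM in pMSCV and at 38.6, 15.9 and 53.9 CPM in SRF-ICA1L (log2 fold change -1.35, SE 0.21, edgeR adjusted p 0.0133). The alpha subunit gene Chrna1 was at 297, 141 and 399 CPM in pMSCV and at 82.6, 91.5 and 198 CPM in SRF-ICA1L (log2 fold change -1.21, SE 0.27, edgeR adjusted p 0.0434). For both of these the groups overlapped while each pair was lower. Rapsn, which clusters the receptor, and Erbb3, a receptor for neuregulin, were the other called members, with log2 fold changes of -0.65 (SE 0.14) and -1.98 (SE 0.37). The gamma subunit gene Chrng had a fold change as large as that of Chrnd (-2.39, SE 0.60) but did not pass (edgeR adjusted p 0.0676).

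Among genes of myoblast fusion and adhesion, 2 of 21 were called lower and none higher, and the median of the list was -0.06. Itga7, the muscle laminin receptor subunit, stood at 568, 429 and 477 CPM in pMSCV and at 170, 168 and 293 CPM in SRF-ICA1L. The groups did not overlap (log2 fold change -1.26, SE 0.18, edgeR adjusted p 0.00946). Cdh15, the M-cadherin of myoblasts, was at 341, 203 and 389 CPM in pMSCV and at 79.3, 85.0 and 217 CPM in SRF-ICA1L (log2 fold change -1.41, SE 0.21, edgeR adjusted p 0.0115). Mymk, the fusion protein myomaker, was at 10.0, 4.58 and 14.6 CPM in pMSCV and at 1.10, 1.02 and 2.46 CPM in SRF-ICA1L, without overlap, and narrowly missed the threshold (edgeR adjusted p 0.0521). In the dystrophin complex 1 of 15 genes passed, and it was higher: Sgcd, the delta-sarcoglycan, was 4.80, 9.81 and 10.7 CPM in pMSCV against 14.2, 15.8 and 20.9 CPM in SRF-ICA1L (edgeR adjusted p 0.0165).

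**Figure D2:**
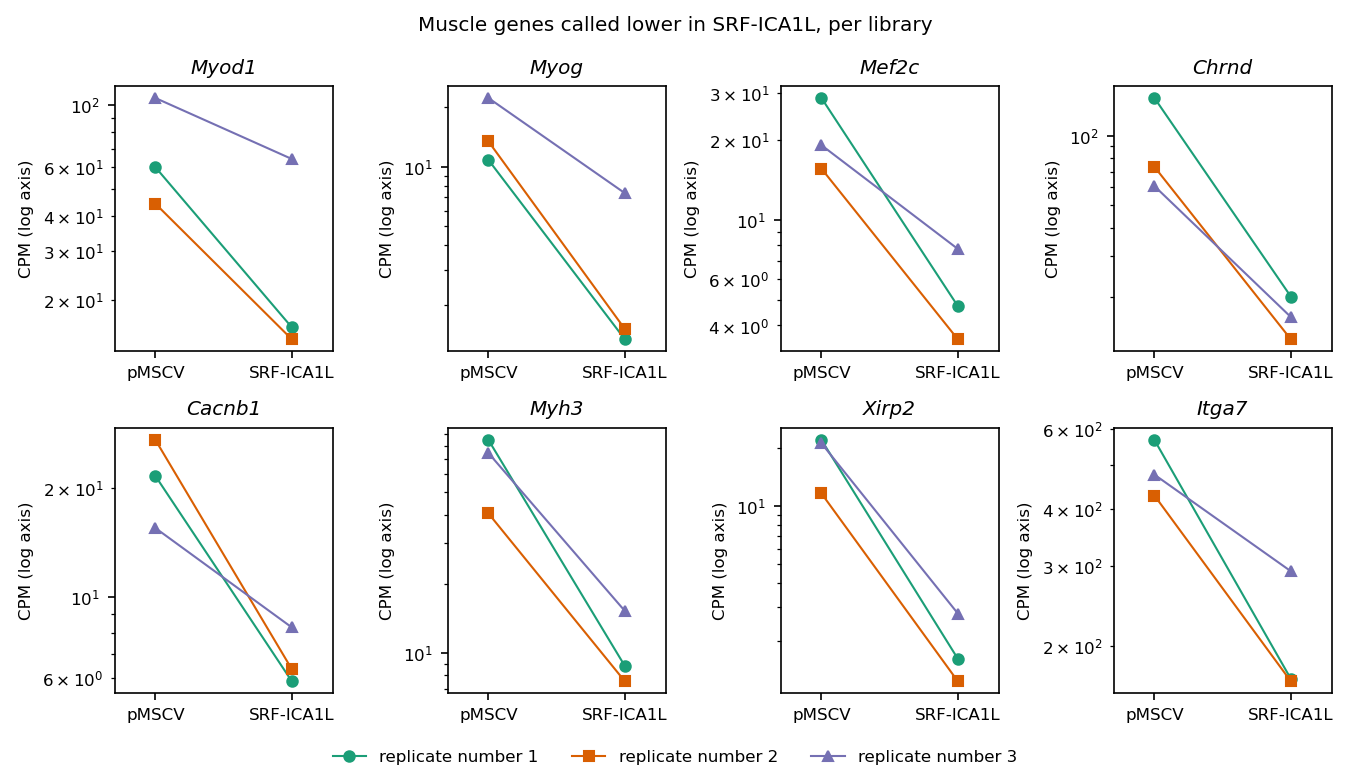
CPM on a log axis of 8 muscle genes called lower, 1 panel a gene, with a line for each replicate number joining its pMSCV library to its SRF-ICA1L library. Every line falls from left to right, and in all 8 panels the line of replicate number 3 falls least.

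These muscle genes were called in the same direction, so their promoters were read for the E-box CAGCTG, a form that MyoD family factors bind, and for the CArG box, the element of SRF. CAGCTG reads the same on both strands, the CArG box was searched in a form that is also its own reverse complement, and the search covered the 250 bases before each RefSeq start (GRCm38.p6). A promoter was found for 10421 of the genes tested. CAGCTG was present for 14.6% of these, for 12.8% of the 148 genes called higher that had a promoter entry and for 26.5% of the 166 called lower with one. Of the 22 genes called lower that stood on a muscle list, 13 had a promoter entry, and 5 of these 13 (38.5%) had CAGCTG. Chrnd, Myod1 and Xirp1 were among those without an entry, so the shares do not cover them. Of the 153 with an entry that were called lower and stood on no muscle list, 39 (25.5%) had CAGCTG. The genes on no skeletal muscle list still included other muscle genes, such as Des, Synpo2l and Dusp13, which had the E-box. The CArG box was present for 1.51% of all promoters, 1.35% of those called higher, 2.41% of those called lower and none of the 13 on a muscle list that had an entry. A match is a run of letters and not a measured binding site. The promoters shown are those of the 5 muscle genes in which CAGCTG was found, so they do not represent the 13. These genes encode parts of the sarcomere, the calcium system and the acetylcholine receptor described above. The E-box is in capitals, and positions are counted back from the start, the last base before it being position -1. That of Atp2a1 lies at chr7:126463074-126463323 on the minus strand with the E-box from position -55, that of Cacna1s at chr1:136052561-136052810 on the plus strand with the E-box from -123, and that of Chrna1 at chr2:73580339-73580588 on the minus strand with E-boxes from -92 and -44. That of Mybph lies at chr1:134193198-134193447 on the plus strand with the E-box from -79, and that of Tnni1, at one of its starts, at chr1:135799171-135799420 on the plus strand with the E-box from -68.
Atp2a1: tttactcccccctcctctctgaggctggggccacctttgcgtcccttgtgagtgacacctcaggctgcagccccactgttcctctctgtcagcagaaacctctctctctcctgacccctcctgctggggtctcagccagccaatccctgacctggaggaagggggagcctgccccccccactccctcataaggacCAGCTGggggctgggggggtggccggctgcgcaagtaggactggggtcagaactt
Cacna1s: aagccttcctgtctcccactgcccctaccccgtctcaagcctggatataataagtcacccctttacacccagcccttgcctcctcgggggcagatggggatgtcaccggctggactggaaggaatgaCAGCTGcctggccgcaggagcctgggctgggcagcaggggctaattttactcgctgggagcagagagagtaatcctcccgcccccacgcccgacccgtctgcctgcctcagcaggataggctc
Chrna1: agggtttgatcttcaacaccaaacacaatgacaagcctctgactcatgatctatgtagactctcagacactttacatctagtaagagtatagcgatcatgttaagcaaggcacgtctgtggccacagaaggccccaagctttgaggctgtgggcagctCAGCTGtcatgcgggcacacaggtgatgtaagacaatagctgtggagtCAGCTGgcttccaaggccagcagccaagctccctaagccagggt
Mybph: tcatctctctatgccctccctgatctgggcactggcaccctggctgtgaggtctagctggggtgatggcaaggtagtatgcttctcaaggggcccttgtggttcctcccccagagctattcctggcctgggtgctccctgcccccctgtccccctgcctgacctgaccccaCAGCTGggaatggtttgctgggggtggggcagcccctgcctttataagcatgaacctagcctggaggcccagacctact
Tnni1: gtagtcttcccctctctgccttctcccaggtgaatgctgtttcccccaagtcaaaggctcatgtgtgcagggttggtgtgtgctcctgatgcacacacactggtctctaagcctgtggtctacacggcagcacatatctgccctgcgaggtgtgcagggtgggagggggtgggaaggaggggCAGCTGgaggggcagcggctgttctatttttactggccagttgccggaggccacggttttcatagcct

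Most of the genes on the lists of SRF targets were not called. Of all genes tested, 1.34% were called higher and 1.65% lower. Of 17 immediate-early targets, 2 were called higher and none lower. Egr1, a zinc-finger factor induced within minutes by growth signals, stood at 510, 1798 and 84.1 CPM in pMSCV and at 1185, 2697 and 214 CPM in SRF-ICA1L. The level varied far more between replicate numbers than between the groups, and within each number the SRF-ICA1L library was higher (log2 fold change 1.03, SE 0.22, edgeR adjusted p 0.0391). Its relative Egr4 had 3, 1 and 0 counts in pMSCV and 55, 92 and 2 counts in SRF-ICA1L. It was at least 16.7-fold higher in SRF-ICA1L, taking 3 counts per pMSCV library as the floor, and the rise was carried by replicates 1 and 2 (edgeR adjusted p 0.00307). Egr2 was at 12.8, 136 and 7.15 CPM in pMSCV and at 74.8, 220 and 25.7 CPM in SRF-ICA1L, just short of the threshold (edgeR adjusted p 0.0502). The first named immediate-early gene, Fos, was 156, 556 and 1.44 CPM in pMSCV and 303, 221 and 3.42 CPM in SRF-ICA1L, with pairs of both signs, and Fosb behaved likewise, at 184, 1299 and 3.48 CPM against 360, 378 and 2.92 CPM.

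Of 26 cytoskeletal SRF targets 1 was called, Cald1, and the median of the list was 0.04. Cald1, which encodes the actin-binding caldesmon, stood at 450, 721 and 786 CPM in pMSCV and at 1004, 1104 and 1027 CPM in SRF-ICA1L. The 3 SRF-ICA1L libraries were close to each other and above all pMSCV libraries (log2 fold change 0.72, SE 0.15, edgeR adjusted p 0.0337). Actb, beta-actin, had a log2 fold change of -0.01 (SE 0.18) and Vcl, vinculin, of 0.11 (SE 0.14). In the list of smooth muscle contractile genes 1 of 16 was called higher and 2 lower, with a median of 0.47. Tagln, the early smooth muscle marker SM22 alpha, had 5, 15 and 14 counts in pMSCV and 81, 55 and 50 counts in SRF-ICA1L, a 5.64-fold rise without overlap (log2 fold change 2.50, SE 0.50, edgeR adjusted p 0.0278). Those called lower were Des, the muscle intermediate filament desmin, and Casq2, a calcium-binding protein of the sarcoplasmic reticulum, both also skeletal muscle genes. Des stood at 472, 797 and 723 CPM in pMSCV and at 174, 288 and 453 CPM in SRF-ICA1L (log2 fold change -1.20, SE 0.20, edgeR adjusted p 0.0153). Other smooth muscle genes had large differences that varied from pair to pair and did not pass. Cnn1, calponin of smooth muscle, was at 0.407, 1.31 and 7.56 CPM in pMSCV and at 64.0, 32.4 and 16.0 CPM in SRF-ICA1L, so that the differences were 7.01, 4.54 and 1.07 on the log2 scale (edgeR adjusted p 0.184). Actg2, the smooth muscle gamma-actin, was at 5.57, 26.4 and 73.6 CPM in pMSCV and at 269, 161 and 121 CPM in SRF-ICA1L (edgeR adjusted p 0.162). Both lay higher in every SRF-ICA1L library than in any pMSCV library. Acta2, the smooth muscle alpha-actin, was 217, 1575 and 2397 CPM in pMSCV against 2161, 2519 and 1910 CPM in SRF-ICA1L, where the low value of pMSCV replicate 1 stands apart and pair 3 was lower (edgeR adjusted p 0.396).

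Genes of the extracellular matrix that were called were mostly higher, where 1.34% of all genes tested were called higher and 1.65% lower. Of 24 collagens 2 were called higher and none lower, with a median of 0.48 but of -0.35 within replicate number 2. Col12a1 encodes a collagen that sits on the surface of collagen I fibrils (chr9:79598991-79718831). It stood at 80.3, 163 and 138 CPM in pMSCV and at 357, 457 and 471 CPM in SRF-ICA1L. The groups were well apart, with a 3.48-fold rise (log2 fold change 1.80, SE 0.17, edgeR adjusted p 0.00234) and differences of 2.15, 1.49 and 1.77 in the 3 pairs. Col2a1, the fibrillar collagen of cartilage, had 3, 16 and 21 counts in pMSCV and 84, 287 and 103 counts in SRF-ICA1L (log2 fold change 3.48, SE 0.56, edgeR adjusted p 0.0136), whereas none of 12 cartilage and tendon genes was called. Among 32 matrix glycoproteins and proteoglycans 2 were called higher, Fbln5 and Hmcn2, and 1 lower, Hmcn1. Fbln5, a fibulin needed for elastic fibres, stood at 22.2, 57.0 and 27.2 CPM in pMSCV and at 130, 127 and 72.2 CPM in SRF-ICA1L (log2 fold change 1.67, SE 0.25, edgeR adjusted p 0.0115). The related hemicentin genes went opposite ways. Hmcn2 was at 1.58, 3.31 and 1.21 CPM in pMSCV and at 5.16, 5.94 and 3.38 CPM in SRF-ICA1L (edgeR adjusted p 0.0299). Hmcn1 was at 20.9, 7.85 and 8.07 CPM in pMSCV and at 0.955, 0.443 and 0.320 CPM in SRF-ICA1L, a 20.8-fold fall (log2 fold change -4.38, SE 0.69, edgeR adjusted p 0.0133), the largest among the falls named here. Of 30 matrix proteases and modifying enzymes 3 were called higher and none lower, with a median of 0.50. Lox, which cross-links collagen and elastin, was 383, 540 and 437 CPM in pMSCV against 1026, 738 and 866 CPM in SRF-ICA1L (log2 fold change 0.95, SE 0.18, edgeR adjusted p 0.0232). Loxl4, of the same enzyme family, and Adam12, a metalloprotease, rose by 0.52 (SE 0.11) and 1.56 (SE 0.24) on the log2 scale.

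Secreted signals and their receptors were also called, mostly higher, beside 1.34% called higher and 1.65% called lower over all genes tested. In the TGF-beta and BMP list 5 of 33 were called higher and 1 lower, with a median of 0.20. Ltbp2, a matrix protein related to the carriers of latent TGF-beta, stood at 55.7, 162 and 134 CPM in pMSCV and at 178, 276 and 276 CPM in SRF-ICA1L, with no overlap (log2 fold change 1.16, SE 0.16, edgeR adjusted p 0.00859). Grem1, a secreted BMP antagonist, was at 519, 277 and 241 CPM in pMSCV and at 1182, 746 and 379 CPM in SRF-ICA1L (log2 fold change 1.09, SE 0.18, edgeR adjusted p 0.0133). The others called higher were Chrdl1, another BMP antagonist, Smad9, a BMP signal transducer, and Bmpr1a, a BMP receptor. Chrdl1 had 0, 0 and 15 counts in pMSCV and 1, 12 and 180 counts in SRF-ICA1L, so its call rests mainly on pair 3. Gdf15, a stress-induced member of the family, was lower, with 73.6, 83.2 and 37.5 CPM in pMSCV and 24.2, 42.2 and 19 CPM in SRF-ICA1L (edgeR adjusted p 0.00860).

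The Wnt list had 6 of 28 called higher and 1 lower, with a median of 0.29 that was 0.99 in pair 3 and -0.25 in pair 2. The genes called higher comprised 3 Frizzled receptors (Fzd1, Fzd7 and Fzd8), the co-receptor Ror2, the secreted inhibitor Sfrp1 and Bicc1, an RNA-binding protein. Fzd1 stood at 29.2, 52.3 and 40.1 CPM in pMSCV and at 51.2, 87.0 and 66.1 CPM in SRF-ICA1L. The groups overlapped, but the 3 pairs gave almost the same difference, 0.81, 0.73 and 0.72 (log2 fold change 0.75, SE 0.09, edgeR adjusted p 0.00628). Bicc1 was at 11.5, 21.3 and 7.84 CPM in pMSCV and at 23.1, 81.0 and 36.5 CPM in SRF-ICA1L (log2 fold change 1.74, SE 0.26, edgeR adjusted p 0.0110). Wnt7b, a ligand, was lower, at 29.1, 5.67 and 14 CPM in pMSCV and at 3.77, 0.665 and 5.25 CPM in SRF-ICA1L (log2 fold change -2.33, SE 0.49, edgeR adjusted p 0.0339). Pygo1, a cofactor of beta-catenin and one of the 15 largest rises, was at 1.22, 2.66 and 1.21 CPM in pMSCV and at 3.63, 14.5 and 3.83 CPM in SRF-ICA1L (edgeR adjusted p 0.0124).

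Among 22 ERBB, FGF and PDGF receptors and ligands, 3 were called higher and 1 lower, with a median of 0.43. Erbb3, an ERBB receptor that was called lower (log2 fold change -1.98, SE 0.37), stood on the synapse list and is not counted here. Fgfr2, a receptor for fibroblast growth factors (chr7:130162451-133123350), stood at 6.25, 6.23 and 1.72 CPM in pMSCV and at 19, 34.5 and 12.1 CPM in SRF-ICA1L. The rise was 4.75-fold, with every SRF-ICA1L library above every pMSCV library (log2 fold change 2.25, SE 0.25, edgeR adjusted p 0.00508). Fgf10, one of the ligands of that receptor, was at 22, 49.7 and 8.07 CPM in pMSCV and at 38.4, 115 and 29.99 CPM in SRF-ICA1L (log2 fold change 1.26, SE 0.28, edgeR adjusted p 0.0444). Ereg, which encodes the EGF receptor ligand epiregulin, rose by 1.29 (SE 0.29) on the log2 scale, and Pdgfd, a ligand of PDGF receptor beta, fell by 1.73 (SE 0.28). Of 19 genes of the FAT and Dachsous cadherins and YAP, 3 were called higher: Fat4, a giant cadherin, Fjx1, a kinase-like secreted protein related to Four-jointed, and Crim1, a transmembrane protein that binds BMPs. Fat4 was at 8.78, 25.9 and 9.61 CPM in pMSCV and at 36.2, 49.2 and 45.1 CPM in SRF-ICA1L (log2 fold change 1.68, SE 0.31, edgeR adjusted p 0.0209).

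**Figure D3:**
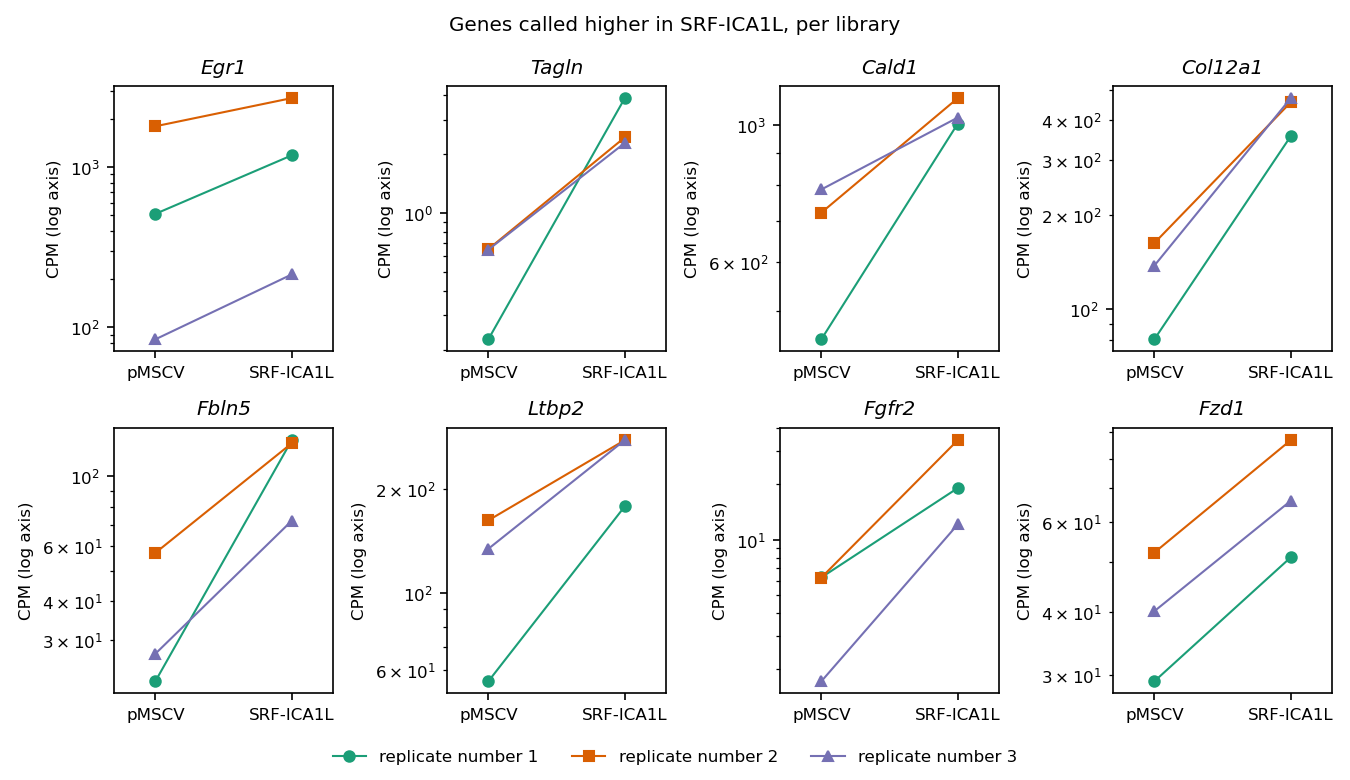
CPM on a log axis of 8 genes called higher, 1 panel a gene, with a line for each replicate number joining its pMSCV library to its SRF-ICA1L library. Every line rises, the lines of Fzd1 are nearly parallel, and those of Egr1 are set far apart by replicate number.

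Other genes among the 15 largest rises covered several functions. Pappa, a protease that frees insulin-like growth factors from their binding proteins, stood at 2.17, 1.35 and 1.07 CPM in pMSCV and at 27.1, 11.9 and 3.61 CPM in SRF-ICA1L (log2 fold change 2.94, SE 0.64, edgeR adjusted p 0.0427). Tnfsf15, a cytokine of the TNF family, was at 0.543, 1.22 and 2.60 CPM in pMSCV and at 20.6, 5.27 and 6.71 CPM in SRF-ICA1L, highest in replicate 1 (log2 fold change 2.98, SE 0.66, edgeR adjusted p 0.0432). Rab27a, a small GTPase of vesicle secretion, was at 1.63, 1.13 and 1.07 CPM in pMSCV and at 5.87, 7.98 and 3.93 CPM in SRF-ICA1L (log2 fold change 2.17, SE 0.27, edgeR adjusted p 0.00628). In all of these the groups did not overlap. Svep1, a large adhesion protein of the matrix, Spata13, Abcb1a, a drug efflux pump, Slc6a17, a vesicle transporter of amino acids, and Xlr3c were also among them, with log2 fold changes from 1.71 (Xlr3c) to 2.47 (Svep1). Xlr3c belongs to a family of near-identical copies on the X chromosome, so its counts are uncertain.

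The genes called from the list of ERK feedback inhibitors were all lower, beside 1.65% of all genes tested called lower. Of 21 tested, 5 were called lower and none higher, and 19 had a fold change below 0, with a median of -0.33 and pair medians of -0.45, -0.28 and -0.48. Dusp8, a phosphatase of stress-activated kinases, stood at 27.2, 32.5 and 17.1 CPM in pMSCV and at 8.78, 14.6 and 8.44 CPM in SRF-ICA1L (log2 fold change -1.26, SE 0.14, edgeR adjusted p 0.00572). Dusp10, which acts on p38 and JNK, was at 136, 201 and 104 CPM in pMSCV and at 70.9, 83.8 and 75.6 CPM in SRF-ICA1L (log2 fold change -0.90, SE 0.15, edgeR adjusted p 0.0154). Neither gene's groups overlapped. Spry2, a Sprouty inhibitor of receptor tyrosine kinase signals, was at 73.8, 153 and 65.2 CPM in pMSCV and at 41.3, 74.3 and 40.9 CPM in SRF-ICA1L (log2 fold change -0.86, SE 0.14, edgeR adjusted p 0.0133). Dusp14 fell by 0.84 (SE 0.12) and Dusp13, a phosphatase expressed in skeletal muscle, by 1.62 (SE 0.23), and for Dusp13 an overlapping predicted gene was called as well, so that their reads may not be separable. The called genes thus act on several kinases, and Dusp6, a phosphatase of ERK itself, had a log2 fold change of -0.28 (edgeR adjusted p 0.309). Dusp1 had a log2 fold change of -0.58 (SE 0.16, edgeR adjusted p 0.0875). Dusp2 was higher in all 3 pairs but was not called (log2 fold change 0.92, SE 0.32, edgeR adjusted p 0.156).

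The genes known from neurons that were called were all lower, beside 1.65% of all genes tested called lower. Of 24 neuronal and vesicle genes, 4 were called lower and none higher, with a median of -0.61 that was -1.18 in pair 1 and -0.01 in pair 3. Syt1, the calcium sensor of vesicle release, stood at 36.8, 12.1 and 2.65 CPM in pMSCV and at 3.10, 0.532 and 0.320 CPM in SRF-ICA1L. Each pair showed a large fall (-3.53, -4.29 and -2.74), although SRF-ICA1L replicate 1 lay above pMSCV replicate 3 (log2 fold change -3.74, SE 0.46, edgeR adjusted p 0.00628). Gap43, a growth cone protein, was at 74.2, 54.0 and 17.4 CPM in pMSCV and at 12.4, 5.67 and 5.16 CPM in SRF-ICA1L (log2 fold change -2.59, SE 0.36, edgeR adjusted p 0.00880). Nefm, a neurofilament, and Sema3d, a secreted guidance cue, fell by 2.31 (SE 0.51) and 2.18 (SE 0.40). The BAR-domain relatives of ICA1L gave no call among 7 genes, with a median of -0.05.

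Other large falls included receptors. Gfra2, a co-receptor for neurturin, stood at 9.46, 4.01 and 4.18 CPM in pMSCV and at 0.859, 0.310 and 1.10 CPM in SRF-ICA1L (log2 fold change -3.01, SE 0.43, edgeR adjusted p 0.00925). F2rl1, a protease-activated receptor, had 673, 84 and 101 counts in pMSCV and 123, 14 and 2 counts in SRF-ICA1L (log2 fold change -2.98, SE 0.57, edgeR adjusted p 0.0251). Sorbs2, an adaptor between actin and membrane, was at 101, 88.5 and 74.7 CPM in pMSCV and at 10.3, 10.4 and 25.3 CPM in SRF-ICA1L (log2 fold change -2.65, SE 0.42, edgeR adjusted p 0.0133). Popdc3, a cyclic AMP-binding membrane protein of muscle, was among the falls with the smallest p, at 158, 167 and 152 CPM in pMSCV and at 60.6, 70.6 and 89.1 CPM in SRF-ICA1L (log2 fold change -1.14, SE 0.13, edgeR adjusted p 0.00572). For Gfra2, Sorbs2 and Popdc3 the groups did not overlap. Lingo2, a leucine-rich membrane protein, Myom3, an M-band protein of the sarcomere, and D5Ertd615e completed the 15 largest falls, with log2 fold changes of -2.79, -2.82 and -2.91.

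The Hox genes of the B cluster were lower and those of the A and C clusters were not called. Hox genes encode homeodomain factors that record position along the body axis and keep their pattern in cultured cells. Of 8 Hox B genes tested, 7 were called lower (Hoxb3, Hoxb5, Hoxb6, Hoxb7, Hoxb8, Hoxb9 and Hoxb13) and none higher, with a median of -2.46. None of 11 Hox A genes (median -0.28) and none of 9 Hox C genes (median 0.17) was called, nor was Hoxd9, the 1 Hox D gene tested (log2 fold change -3.14, SE 0.98, edgeR adjusted p 0.117). Hoxb9 (chr11:96271457-96276595) stood at 51.6, 19.5 and 10.0 CPM in pMSCV and at 11.2, 1.68 and 0.183 CPM in SRF-ICA1L. SRF-ICA1L replicate 1 lay at about the level of pMSCV replicate 3, while the pairs fell by 2.19, 3.46 and 5.21 (log2 fold change -3.32, SE 0.48, edgeR adjusted p 0.0110). Hoxb8 had 219, 67 and 52 counts in pMSCV and 48, 9 and 0 counts in SRF-ICA1L, where the count of 0 allows up to 3 counts (log2 fold change -3.0, SE 0.54, edgeR adjusted p 0.0187). Hoxb6 was at 17.4, 3.31 and 9.79 CPM in pMSCV and at 5.87, 0.887 and 0.913 CPM in SRF-ICA1L (log2 fold change -2.22, SE 0.40, edgeR adjusted p 0.0194). The fall was largest in pair 3, where the median of the 8 genes was -3.50 against -1.87 in pair 1 and -2.07 in pair 2, the opposite of the order among sarcomere genes. Hoxb4, which lies between Hoxb5 and Hoxb3, had the smallest change of the 8 and did not pass (log2 fold change -1.42, SE 0.35, edgeR adjusted p 0.0577). Neighbouring Hox genes have overlapping and antisense transcripts, and the strand setting of the counting is not given in the sources used here, so the split of reads among them is uncertain.

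**Figure D4:**
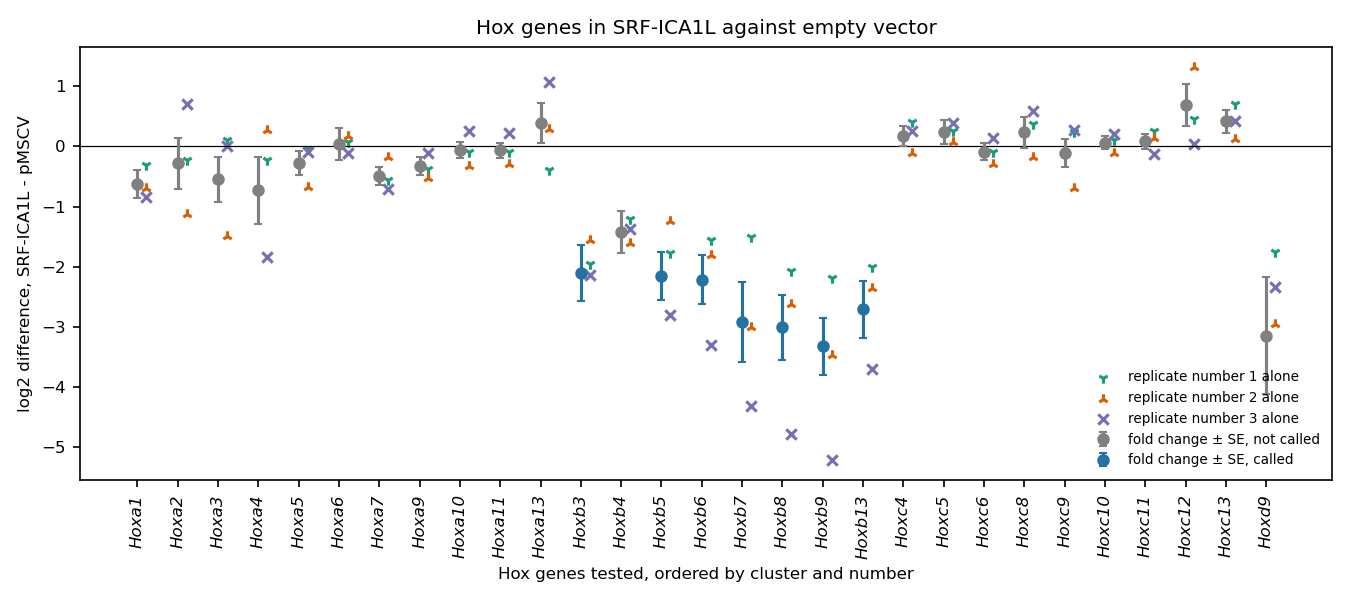
Log2 differences between SRF-ICA1L and pMSCV for the 29 Hox genes tested, ordered by cluster and number, with circles and bars for the fitted fold change and its SE (blue where called) and small marks for each replicate number alone. Hoxb genes lie between -1.42 and -3.32 with replicate number 3 lowest in most, Hoxa and Hoxc genes lie around 0, and Hoxd9, not called, lies at -3.14.

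Most genes of the immune, metabolic and growth lists were not called. Of all genes tested, 2.99% were called in either direction. Of 17 MHC class I and antigen presentation genes 2 were called lower. Nlrc5, the transactivator of MHC class I genes, stood at 6.74, 5.62 and 4.27 CPM in pMSCV and at 1.38, 2.22 and 2.01 CPM in SRF-ICA1L (edgeR adjusted p 0.0341). H2-K1, a class I heavy chain, was at 63.7, 70.1 and 48.8 CPM in pMSCV and at 25, 33.0 and 27.0 CPM in SRF-ICA1L (log2 fold change -1.09, SE 0.17, edgeR adjusted p 0.0133), with the limit that class I genes share sequence. Neither overlapped between groups. None of 28 interferon-stimulated genes was called, and their median was -0.14. Of 27 NF-kappaB targets and chemokines, Cx3cl1, a membrane-bound chemokine, was called higher, and Traf1, an adaptor of TNF receptors, and Ackr3, a scavenging chemokine receptor, were called lower. Ackr3 was at 137, 126 and 125 CPM in pMSCV and at 35.9, 28.7 and 62.9 CPM in SRF-ICA1L (log2 fold change -1.70, SE 0.26, edgeR adjusted p 0.0126). All 26 cholesterol and fatty acid synthesis genes had a fold change above 0, with a median of 0.54, but 1 passed, Hmgcs1, an early enzyme of the cholesterol pathway, at 355, 105 and 96.5 CPM in pMSCV and 532, 282 and 177 CPM in SRF-ICA1L (edgeR adjusted p 0.0377). The median of the list was 0.04, 1.21 and 0.35 in the 3 pairs. None of 33 cell cycle genes was called, with a median of 0.15, and none of 14 Notch pathway genes or 27 glycolysis and hypoxia genes. Hey1, a repressor downstream of Notch that was called lower, stood on the list of myogenic regulators and not on the Notch list. Atf3 and Slc7a5 (a stress-induced transcription factor and an amino acid transporter) were the called members of the 24 ATF4 and unfolded-protein response genes, both lower, at log2 fold changes of -1.57 (SE 0.25) and -0.59 (SE 0.13). In the IGF list 1 of 16 was called lower, Igf2bp2, an RNA-binding protein, and in the FOXO list 1 of 21, Eif4ebp1, an inhibitor of translation.

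**Figure D5:**
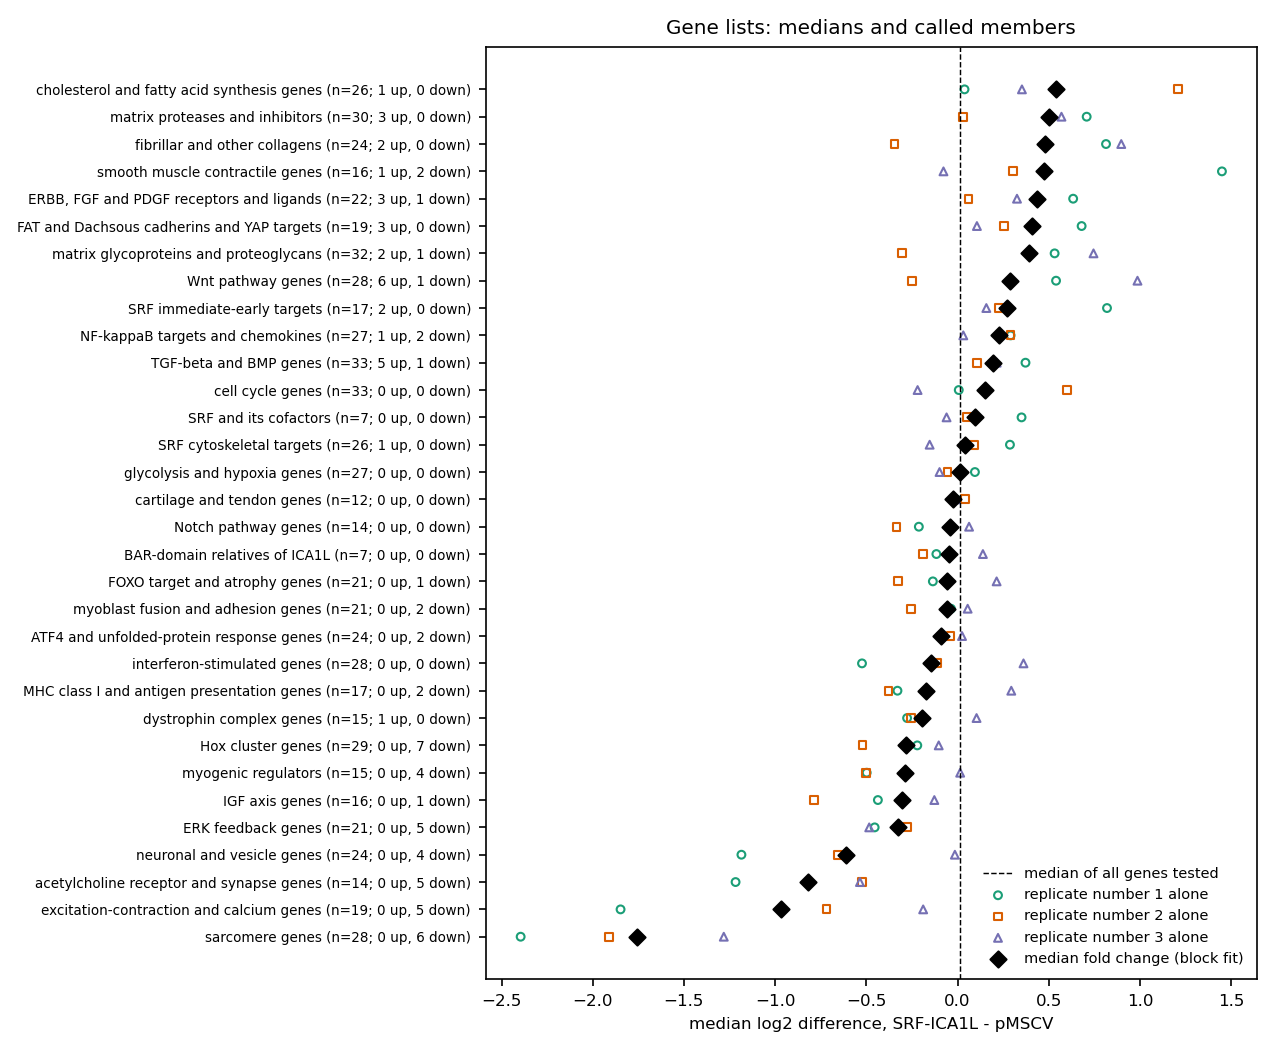
Median log2 difference between SRF-ICA1L and pMSCV for each gene list (black diamonds, from the fit with the block) and for each replicate number alone (open marks), with the number of genes tested and called in each list at the left and a dashed line at the median of all genes tested. The Hox genes are drawn as 1 list, not by cluster. Among the lists drawn, the sarcomere list lies lowest at -1.76, with all 3 replicate numbers below -1.2.

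Markers of other cell types were read beside these results. The summed level of 7 myoblast markers was 1512 to 1844 CPM in pMSCV and 506 to 1167 CPM in SRF-ICA1L, with 4 of 7 called lower (Des, Myod1, Itga7 and Cdh15). In bulk libraries, fewer cells of a type and less RNA per cell cannot be told apart. Of 9 fibroblast markers 7 were tested and none was called, and their sum was 234 to 1100 CPM in pMSCV and 391 to 657 CPM in SRF-ICA1L. Of 7 pericyte markers 4 were tested and none was called, at 148 to 479 CPM against 185 to 299 CPM. Endothelial markers summed to at most 2.99 CPM and markers of Schwann cells and glia to at most 4.03 CPM in these 6 libraries, and Pecam1, Ptprc, Sox10, Epcam and Adipoq were not among the genes tested. Of 7 neuron markers 4 were tested and Syt1 was called, lower, at a sum of 241 to 664 CPM in pMSCV and 73.1 to 305 CPM in SRF-ICA1L, and Rbfox3, Snap25 and Elavl4 were not among the genes tested. Adipocyte markers summed to 66.9 to 314 CPM against 57.9 to 169 CPM, with 4 of 7 tested and none called. Epithelial markers summed to 2.31 to 37.8 CPM against 5.01 to 51.4 CPM, with 2 of 6 tested, and markers of macrophages and blood cells to 10.9 to 22 CPM against 7.88 to 13.1 CPM, with 5 of 11 tested. None of either list was called. The part of shifts in the mixture of cell states in the results above was not tested.

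The comparison with wild-type SRF asks where the fusion line differed from the line with SRF alone. It called 14 genes, 0.0956% of those tested, 8 higher (0.0546%) and 6 lower (0.041%) in SRF-ICA1L. Those higher were Egr4, Abcb1a, Clip4, Irx3, Slc6a17, Xlr3c, Lxn and Ltbp2. Those lower were Srf, Glrp1, Lbx1, Grb14, Dcaf8l and Aim2. Ltbp2 stood at 76.1, 141 and 145 CPM in SRF, near its level in pMSCV, against 178, 276 and 276 CPM in SRF-ICA1L (log2 difference 1.05, SE 0.16, edgeR adjusted p 0.0484). Irx3, a homeodomain factor, was 9.43, 10.3 and 9.81 CPM in SRF and 32.6, 23.8 and 24.9 CPM in SRF-ICA1L (log2 difference 1.45, SE 0.18, edgeR adjusted p 0.0218). Glrp1 was 27.4, 6.95 and 6.12 CPM in SRF and 6.83, 1.02 and 1.92 CPM in SRF-ICA1L (log2 difference -2.12, SE 0.20, edgeR adjusted p 0.0104). Lbx1, a homeobox gene of migrating limb muscle precursors, was 8.80, 3.11 and 0.651 CPM in SRF, 2.20, 0.754 and 0.274 CPM in SRF-ICA1L, and 14.7, 5.58 and 1.72 CPM in pMSCV (log2 difference from SRF -1.85, SE 0.23, edgeR adjusted p 0.0218). No gene of the muscle lists was called in this comparison. The median difference from SRF was -0.07 for the sarcomere genes and 0.08 for the excitation-contraction genes, while the SRF line itself had medians of -1.72 and -1.06 against pMSCV, the same control as above. Myog was 2.56, 1.94 and 6.21 CPM in SRF, and its difference between SRF-ICA1L and SRF was -0.24 (SE 0.46), an SE too wide to exclude a further fall. Xirp2, at 9.56, 6.46 and 4.56 CPM in SRF, and Synpo2l, at 27.1, 15 and 14.6 CPM, lay between the other groups, and neither difference from SRF passed (-1.87, SE 0.42, edgeR adjusted p 0.176, and -1.36, SE 0.28, edgeR adjusted p 0.140). Only 1 of these calls remained when all 17 libraries entered the fit with the block, and none remained without the block or without any 1 of the SRF-ICA1L libraries or SRF replicate 1. Without SRF replicate 2 there were 3 calls and without SRF replicate 3 there was 1.

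The comparison with SRF-RELA, a fusion with a subunit of NF-kappaB, called no gene, although 266 genes passed an unadjusted p of 0.05, and both DESeq2 and limma-voom also called 0. This does not show that the lines are alike. For Col12a1 the SRF-RELA libraries stood at 308, 478 and 658 CPM, a log2 difference of -0.12 (SE 0.17) from SRF-ICA1L, for Chrnd at 19.3, 10.5 and 8.20 CPM (0.47, SE 0.19), and for Hoxb9 at 8.37, 3.35 and 0.375 CPM. Col2a1 was 15.7, 74.1 and 9.33 CPM in SRF-RELA against 4.01, 12.7 and 4.70 CPM in SRF-ICA1L, lower in each of the 3 SRF-ICA1L libraries than in the SRF-RELA library of its number, and the difference of -1.96 did not pass.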

How the data were processed

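Polyadenylated RNA of C2C12 lines was sequenced with a stranded kit, per the labels' protocols. The authors deposited raw counts per gene, 1 table of 15062 genes, made with FastQC 0.11.8, Trimmomatic 0.39, HISAT2 and featureCounts of Subread 2.0.0 on build GRCm38, per the submitters' processing notes; annotation and strand setting are not given in the sources used here. Every gene in the table reached 10 counts in at least 3 libraries.

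Counts were scaled by TMM and tested with edgeR 4.0.16 (limma 3.58.1, R 4.3.3): the quasi-likelihood test with robust dispersions, terms for group and replicate number, 12 libraries (pMSCV, SRF, SRF-ICA1L and SRF-RELA, 20948439 to 23543734 counts each) and 6 residual degrees of freedom. The filter in edgeR removed 423 genes. The SE is the log2 fold change divided by the root of the F statistic. Pair differences are log2 CPM with a prior count of 2. The floor was 3 counts per library. The biological coefficient of variation was 18.5%. The scripts were tested on simulated data.

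The groups share replicate numbers. Deviations from the group means of same-numbered pMSCV and SRF-ICA1L libraries correlated at 0.534, 0.642 and 0.496 across genes, and those of different numbers at 0.116 at most; over all 6 pairs of the 4 groups, same-numbered libraries gave 0.410 to 0.796. The pairing comes from these correlations, not from the labels. The 4 groups were put in 1 fit because their same-numbered libraries had earlier been seen to deviate together. The correlations are therefore not separate support for the block, and the choice bears on the spread behind all calls. The SRF-FOXO1 and SRF-PDGFRB libraries were left out of the fit.

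The members, the gene lists and the tests were chosen with earlier results of these data known. Genes were named by rule: Srf, Ica1l and cofactors; the 15 largest rises and falls and the 5 smallest p-values each way among called genes whose higher group had 50 counts in each library; called list members, the 2 first members of each list, and genes called against SRF. Others, such as Cnn1, Actg2, Egr2, Pax7, Tnnt3, Chrng, Hoxb4 and Dusp6, were chosen after their values were seen. One gene that the rule names is not reported here. Gene coordinates are those of GENCODE on GRCm38. Promoter sequences are from RefSeq (GRCm38.p6).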

Additional observations from a re-analysis of the deposited data

How the results depend on the processing

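The call of a gene depends on how the spread was estimated; the directions of called genes held. All 437 genes called against pMSCV kept their direction wherever an alternative gave them a value. The genes were selected in a fit of these same libraries, so the kept directions are not independent support. Of the 62 named genes that were not called, 21 changed sign under at least 1 alternative, such as Actb (-0.29 without any library of number 1 and 0.16 without any of number 3). The number called against pMSCV was 437 with the block and 0 without the block in the 12 libraries, 19 in the 6 libraries compared with the block and 0 without it (673 at an unadjusted p under 0.05), 0 in all 17 libraries with the block (1442) and 0 without it (938), and 1126 with DESeq2 1.42.0 and the block. It stayed within 1.5 times the main count with limma-voom (464), DESeq2's size factors (438), no filter (423), a mean of at least 100 counts (300) and no robust dispersions (442). Leaving out libraries gave 0 to 543 calls.

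Against SRF, 14 genes were called with the block and 0 without it (279 at an unadjusted p under 0.05), 31 in the 6 libraries compared with the block and 0 without it (443), 1 in all 17 libraries with the block and 0 without it (235), 184 with DESeq2 and 8 at a mean of at least 100 counts; leaving out libraries gave 0 to 3. Against SRF-RELA, none was called with the block, 7 in the 6 libraries compared with the block, and 0 to 1 when libraries were left out. The cause of these differences was not tested. Medians of the sarcomere list ran from -2.25 to -1.50 over all 20 alternatives, of the excitation-contraction list from -1.20 to -0.25, of the collagens from 0.07 to 1.02, and 9 of the 32 medians changed sign: cartilage and tendon (-0.09 to 0.02), cell cycle (-0.05 to 0.31), FOXO targets (-0.39 to 0.04), glycolysis (-0.04 to 0.06), interferon (-0.41 to 0.18), myoblast fusion (-0.15 to 0.04), Notch (-0.26 to 0.004), SRF and its cofactors (-0.03 to 0.16) and SRF cytoskeletal targets (-0.09 to 0.13). Some genes had few counts in single libraries, such as Egr4 in pMSCV and Hoxb8 and F2rl1 in SRF-ICA1L. The effect of depth was not tested.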

Other observations

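Some called genes lie next to each other in the genome. Of the 437, 41 stood in 18 runs of genes that are neighbours in the table and were called in the same direction, and 2 runs held 3 or more genes. The longest was Hoxb9 to Hoxb5 with 5 genes (chr11:96271457-96306121). The next was a run of 4 genes, all lower, at chr7:6513269-6967219, which holds Olfr1349, Zim1, Peg3 and Usp29, the last 3 being genes of the imprinted Peg3 domain, expressed from 1 parental allele. Peg3, a zinc-finger gene, stood at 611, 320 and 335 CPM in pMSCV and at 118, 127 and 215 CPM in SRF-ICA1L, without overlap between the groups (log2 fold change -1.48, SE 0.29, adjusted p 0.0285 by the Benjamini-Hochberg method after edgeR's quasi-likelihood test). Zim1 was at 80.2, 63.3 and 29.1 CPM in pMSCV and at 9.88, 7.80 and 18.6 CPM in SRF-ICA1L, and Usp29, which starts beside Peg3 on the other strand, at 10.4, 4.66 and 5.80 CPM and 2.58, 1.06 and 2.28 CPM. The differences were smallest in pair 3 for all 3 genes. The fall was not particular to SRF-ICA1L. Against the same pMSCV libraries, Peg3, Zim1 and Usp29 had log2 fold changes of -2.20, -2.93 and -2.43 in SRF-RELA, all called. In the SRF line their log2 fold changes were -1.07, -1.65 and -1.38, and none passed. These genes were chosen after their values were seen, and their calls in SRF-ICA1L are lost without the block, as are all others.

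The genes of both bradykinin receptors, which lie side by side at chr12:105563226-105605428, were higher. Bdkrb2, the constitutive receptor, stood at 5.34, 8.24 and 2.09 CPM in pMSCV and at 18.3, 24.8 and 2.92 CPM in SRF-ICA1L. Bdkrb1, the inducible receptor, had 40, 97 and 2 counts in pMSCV and 125, 410 and 28 counts in SRF-ICA1L. In both genes each pair was higher while the groups overlapped, and the log2 fold changes were 1.34 (SE 0.26) and 2.21 (SE 0.37). Other called neighbours were Mybph and Myog, lower, and Fmn1 and Grem1, higher.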
